A study of Mus musculus with 9 samples.

Results

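Chemokines of the CXC and CX3C families are described here in cultured mouse chondrocytes, the cells of cartilage. The members are the 9 genes Cxcl1, Cxcl2, Cxcl3, Cxcl5, Cxcl10, Cxcl12, Cxcl14, Cxcl16 and Cx3cl1, taken by symbol from the 56748 genes of the deposited count table. Each symbol matched a single gene, and all 9 passed the filter on low counts that left 15502 genes for testing. Cxcl2 and Cxcl3 had 2 and 3 counts in all over the control libraries, so they passed it only through the stimulated libraries.

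The study measured RNA by sequencing in chondrocytes from the knee cartilage of wild-type mice, in 3 groups of 3 libraries. All were collagenase-isolated primary cells grown in culture. Control cells had no added cytokine; a second group was stimulated with interleukin-1β (IL-1β), which is used to provoke inflammation in cartilage cells; the third received IL-1β together with recombinant SFRP5, an extracellular Wnt antagonist. Dose, time, strain and age are not given in the sources used here, and there was no group with SFRP5 alone. The labels do not say whether libraries came from separate animals or cultures, so p-values here reflect the variation among 3 libraries per group, and that variation may be technical.

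Chemokines are small secreted proteins that guide migrating cells through G protein-coupled receptors. The CXC ligands with a Glu-Leu-Arg (ELR) motif, here Cxcl1, Cxcl2, Cxcl3 and Cxcl5, act on CXCR2 and draw neutrophils. The others have different receptors: CXCL10 acts on CXCR3 of lymphocytes, CXCL12 on CXCR4 and ACKR3, CXCL16 on CXCR6 and CX3CL1 (fractalkine) on CX3CR1, while CXCL14 is made by many resting tissues. IL-1 signals through MyD88 and IRAK kinases to NF-κB, a transcription factor that binds κB sites in the promoters of many inflammatory genes.

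The genes of the 4 ELR ligands lie in a cluster on chromosome 5, and the promoters below are shown because Cxcl1, Cxcl2 and Cxcl3 carry the same letters near the start. In the GENCODE M21 annotation (build GRCm38, chr5:90759360-90905938) the cluster spans 146.6 kb and its 7 chemokine genes run Cxcl5, Ppbp, Pf4, Cxcl3, Cxcl15, Cxcl1, Cxcl2, all on the plus strand. In the same annotation Cxcl10 lies at chr5:92346638-92348889 (minus strand), Cxcl12 at chr6:117168535-117181367 (plus), Cxcl14 at chr13:56288643-56296551 (minus), Cxcl16 at chr11:70453983-70459984 (minus) and Cx3cl1 at chr8:94772009-94782427 (plus). RefSeq promoter sequences (GRCm38.p6) were matched by symbol for 7 of the 9 members, all but Cxcl5 and Cxcl16. Of the 7, 6 are printed; that of Cx3cl1 was searched and is not printed, because a GENCODE start lies inside its window. Each line gives bases 220 to 31 before the RefSeq start, 5′ to 3′ on the strand of the gene, with matches to the NF-κB consensus in capitals.
Cxcl1, chr5:90891025-90891214 (plus strand): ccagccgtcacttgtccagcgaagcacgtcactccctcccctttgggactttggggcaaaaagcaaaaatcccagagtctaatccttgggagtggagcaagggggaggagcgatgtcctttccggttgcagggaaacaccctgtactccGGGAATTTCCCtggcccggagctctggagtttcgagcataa
Cxcl2, chr5:90903679-90903868 (plus strand): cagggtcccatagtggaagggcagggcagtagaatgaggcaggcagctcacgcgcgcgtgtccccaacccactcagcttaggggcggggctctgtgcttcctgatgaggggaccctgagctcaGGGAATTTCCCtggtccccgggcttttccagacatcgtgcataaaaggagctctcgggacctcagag
Cxcl3, chr5:90785881-90786070 (plus strand): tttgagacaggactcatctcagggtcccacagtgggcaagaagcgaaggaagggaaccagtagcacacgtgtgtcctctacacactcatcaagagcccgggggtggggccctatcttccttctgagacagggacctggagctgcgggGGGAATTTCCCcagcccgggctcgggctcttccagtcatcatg
Cxcl10, chr5:92348920-92349109 (minus strand): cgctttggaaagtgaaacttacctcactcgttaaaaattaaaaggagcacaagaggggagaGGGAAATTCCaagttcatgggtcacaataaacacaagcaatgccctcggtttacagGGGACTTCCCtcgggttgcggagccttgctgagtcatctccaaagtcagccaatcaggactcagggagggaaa
Cxcl12, chr6:117168315-117168504 (plus strand): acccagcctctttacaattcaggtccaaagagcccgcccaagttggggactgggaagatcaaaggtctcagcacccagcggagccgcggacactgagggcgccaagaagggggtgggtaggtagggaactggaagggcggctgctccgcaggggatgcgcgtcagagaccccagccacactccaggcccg
Cxcl14, chr13:56296582-56296771 (minus strand): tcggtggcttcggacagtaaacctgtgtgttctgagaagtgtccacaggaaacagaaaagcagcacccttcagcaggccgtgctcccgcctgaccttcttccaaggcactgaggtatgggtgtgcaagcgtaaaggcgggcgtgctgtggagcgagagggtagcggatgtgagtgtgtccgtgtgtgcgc

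In 250 bases before the start, both strands searched, 4 of the 7 promoters held a match to the NF-κB consensus, which 3.9% of 32841 RefSeq promoters held. As Cxcl1, Cxcl2 and Cxcl3 lie in one cluster and carry the same letters, their matches are not separate cases. Whether the members hold more matches than other genes was not tested. Cxcl1, Cxcl2 and Cxcl3 each held the letters GGGAATTTCCC, which the consensus matches on both strands with an offset of 1 base and which was counted as 1 site. It began 71 bases before the start of Cxcl1, 97 before that of Cxcl2 and 73 before that of Cxcl3. Its first 10 letters were in 0.0853% of all promoters, on either strand. Cxcl10 held 2 other matches, GGGAAATTCC from base 159 and GGGACTTCCC from base 103, and also TGANTCA, the AP-1 letters (6.75% of promoters). Core letters of an interferon response element (2.98% of promoters) were found in Cxcl10 and in Cxcl14. The promoters of Cxcl12, Cxcl14 and Cx3cl1 held no match to the NF-κB consensus in this window. For Cx3cl1 most of the bases searched lie after the GENCODE start, so the sequence before that start was hardly searched. A match is a description of letters and shows no binding.

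**Figure D1:**
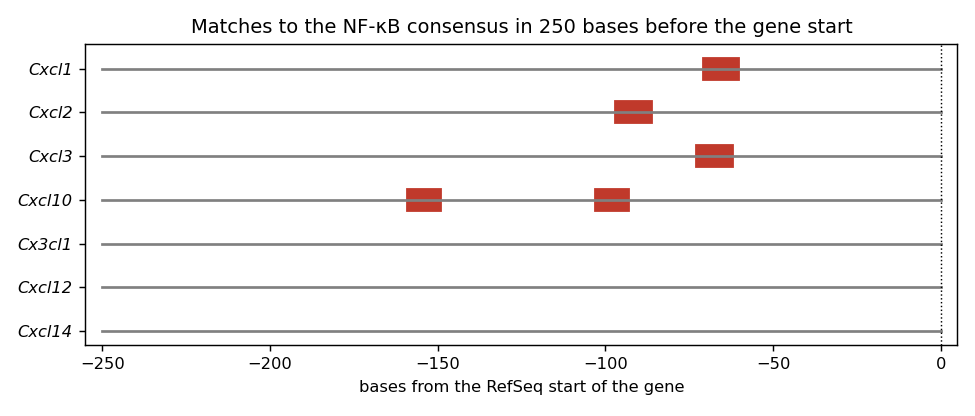
Map of 250 bases before the RefSeq start of 7 chemokine genes, with the distance from the start in bases on the x axis. Red boxes are matches to the NF-κB consensus; Cxcl1, Cxcl2 and Cxcl3 have 1 each, Cxcl10 has 2, and the lower 3 genes have 0.

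Stimulated and control cells were compared first, for the response to IL-1β alone. IL-1β raised 7 of the 9 members and lowered Cxcl12 and Cxcl14. Of all genes tested, 78.9% were called, 38.5% higher and 40.4% lower, in edgeR's quasi-likelihood test (adjusted p under 0.05), so being called is common here, and the sizes carry the description. The median log2 change was 3.88 over the members and −0.03 over all genes tested. Libraries of both groups did not overlap for any of the 9, as for 80% of all genes tested (38.8% higher and 41.1% lower). Levels are CPM, counts scaled to a common library total with TMM factors, and changes are log2 fold changes ± SE. In bulk RNA, fewer cells of a type and less RNA per cell cannot be told apart.

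**Figure D2:**
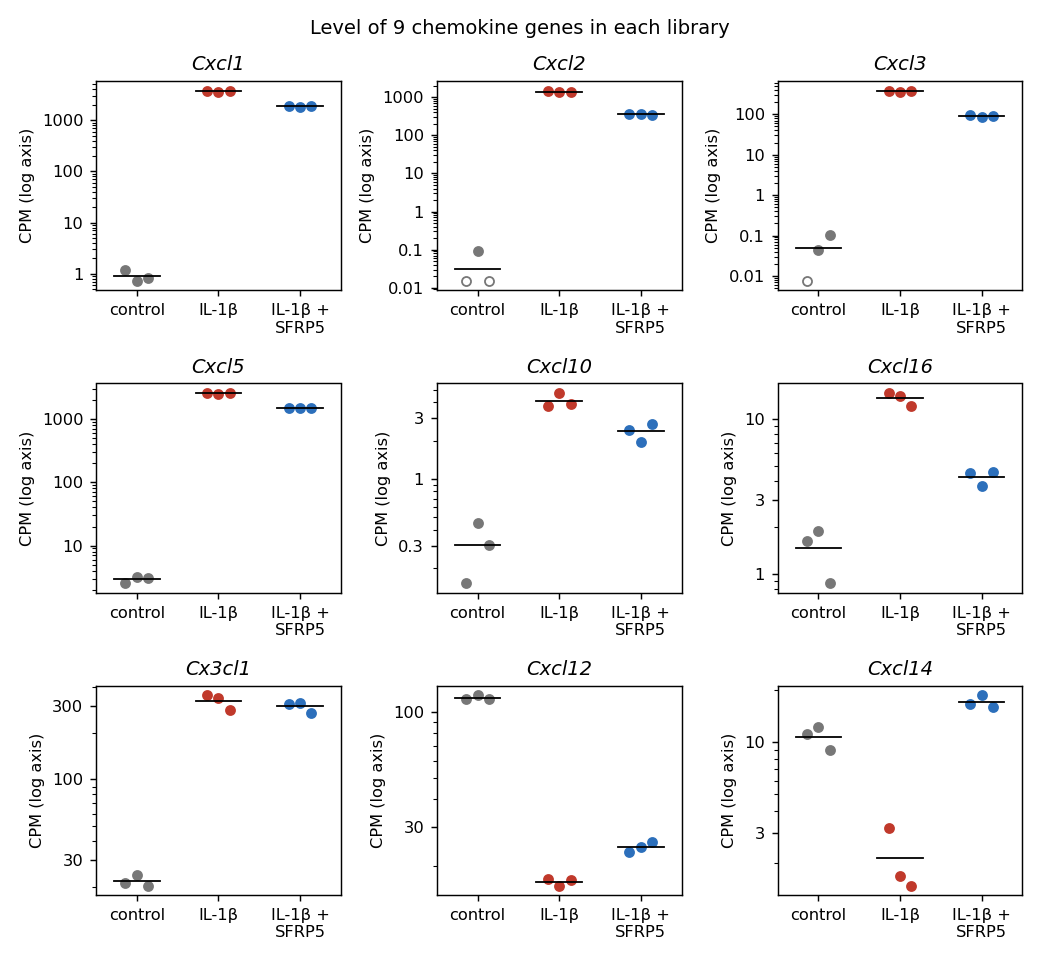
Level of each chemokine gene in every library, in CPM on a log axis that differs between panels. Points are libraries, lines are group means, and open points at the lower edge are libraries with 0 counts. The libraries with SFRP5 lie between the other groups for 7 genes, overlap the IL-1β libraries for Cx3cl1, and lie above both groups for Cxcl14.

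The ELR ligands went from at most 71 counts in a control library to high levels, with Cxcl1, Cxcl5 and Cxcl2 among the 47 highest genes per length. Cxcl1 (ENSMUSG00000029380) had 23, 16 and 16 counts in the control libraries and 62442, 59859 and 64168 with IL-1β, which is 1.16, 0.722 and 0.812 against 3794, 3625 and 3653 CPM. Its level per gene length, 1968 ± 48.3 FPKM (SD, n = 3), held rank 13 among the 15502 genes with IL-1β, against rank 13061 in control. This was a 4103-fold rise (edgeR, adjusted p = 1.84e-35). Cxcl5 (ENSMUSG00000029371), a ligand of the same receptor, was at 2.53, 3.21 and 3.10 CPM in control and reached 2572, 2525 and 2551 CPM, rank 24 per length. This was an 862-fold rise (edgeR, adjusted p = 2.48e-35).

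Cxcl2 and Cxcl3, neutrophil attractants that share some transcript sequence, were hardly seen without IL-1β. Cxcl2 (ENSMUSG00000058427) had 0, 2 and 0 counts in control and 24548, 22421 and 23651 with IL-1β, or 1492, 1358 and 1346 CPM. Cxcl3 (ENSMUSG00000029379) had 0, 1 and 2 counts and then 6108, 5949 and 6783, or 371, 360 and 386 CPM. From depth-scaled counts, the IL-1β to control ratio of Cxcl2 was 43060 (exact 95% interval 11920 to 355600) and that of Cxcl3 was 7659 (2620 to 37140), intervals that cover counting error only. At these depths 3 counts in a library equalled 0.135 to 0.195 CPM. Of all 75-base stretches in the transcripts of Cxcl2 and Cxcl3, 101 were identical in both, 4.57% of those of Cxcl2 and 2.78% of those of Cxcl3. A read that lay wholly inside such a stretch could not be assigned to either gene by its own letters, though its mate could differ. The 75 bases are a setting, and the reads concerned were not counted. No other members shared such a stretch. The neighbours in the cluster stayed scarce: over all 9 libraries Ppbp had 100 counts, Pf4 38 and Cxcl15 4, against 286372 for Cxcl1.

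The ligands outside the ELR group rose less. Cx3cl1 (ENSMUSG00000031778), made as a membrane-bound protein that can be shed, was at 21.2, 24.0 and 20.5 CPM in control and at 350, 337 and 282 CPM with IL-1β, a 14.7-fold rise (edgeR, adjusted p = 3.8e-24). Cxcl16 (ENSMUSG00000018920), also membrane-bound and a scavenger receptor for oxidised lipoprotein, rose from 1.62, 1.90 and 0.863 CPM to 14.8, 14.05 and 12.2 CPM, a 9.24-fold rise (edgeR, adjusted p = 4.28e-14). Cxcl16 overlaps Zmynd15 on the other strand, which had 8 counts over control, 57 over IL-1β and 18 over IL-1β with SFRP5. Whether counting used strand is not known from the labels, so reads of this pair may not be fully separated. Cxcl10 (ENSMUSG00000034855), an interferon-responsive ligand, stayed low despite its change. It had 3, 10 and 6 counts in control and 62, 78 and 68 with IL-1β, a log2 change of 3.71 ± 0.32 (edgeR, adjusted p = 1.03e-10). At 1.83 FPKM it held rank 9700 per length. Cxcl10 overlaps Art3 on the other strand, which had 27 counts over all 9 libraries.

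Cxcl12 and Cxcl14, ligands known from resting tissues, fell. Cxcl12 (ENSMUSG00000061353), which holds CXCR4-bearing cells in their niches, was at 114.3, 118.6 and 114.1 CPM in control and at 17.4, 16.2 and 17.1 CPM with IL-1β. That is 6.84-fold lower, a log2 change of −2.77 ± 0.06 (edgeR, adjusted p = 5.22e-24). Cxcl14 (ENSMUSG00000021508) was at 11.1, 12.2 and 8.99 CPM in control and at 3.22, 1.70 and 1.48 CPM with IL-1β, where library 1 stood above the other pair. Cxcl14 was 5.08-fold lower (edgeR, adjusted p = 2.57e-11).

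The effect of adding SFRP5 was then compared within stimulated cells. All 4 ELR ligands, Cxcl10 and Cxcl16 fell, Cxcl12 and Cxcl14 rose, and Cx3cl1 was not called. Thus 6 of 9 members were lower and 2 higher, against 15.7% and 15.6% of all genes tested (31.3% called in all), and 8 of 9 had groups that did not overlap, 6 lower and 2 higher, against 40.8% of all genes (20.3% lower and 20.5% higher). The median log2 change was −0.80 over the members and 0.01 over all genes tested. The summed level of the 4 ELR ligands was 8229, 7868 and 7937 CPM with IL-1β and 3871, 3765 and 3810 CPM with SFRP5 as well, still far above the 3.69, 4.06 and 4.01 CPM of control.

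**Figure D3:**
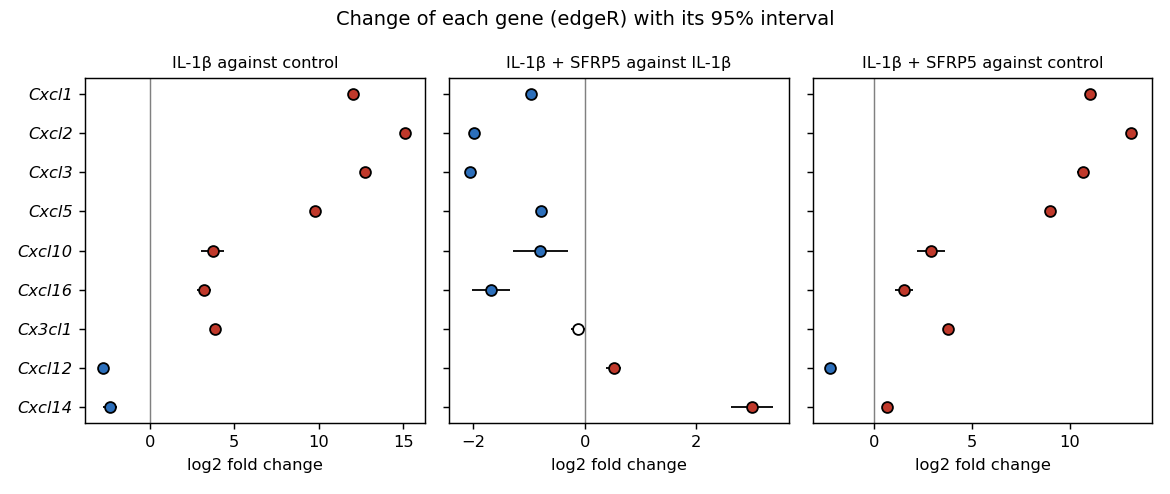
Log2 fold change of each chemokine gene in 3 comparisons, with its 95% interval; red points were called higher, blue lower and white not called, and the x axes differ. Intervals are too narrow for Cxcl1, Cxcl2, Cxcl3 and Cxcl5 against control, whose control counts are low. In the middle panel 6 genes lie below 0 and called, Cx3cl1 is open at −0.12, and Cxcl12 and Cxcl14 lie above 0.

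The ELR ligands did not fall by equal amounts. Cxcl1 was at 1921, 1851 and 1913 CPM with SFRP5, 51.4% of its level with IL-1β alone, a log2 change of −0.96 ± 0.03 (edgeR, adjusted p = 4.88e-17). Cxcl5 was at 1485, 1469 and 1471 CPM, or 57.9% (−0.79 ± 0.03, edgeR, adjusted p = 9.64e-16). Cxcl2 and Cxcl3 kept a smaller part. Cxcl2 was at 369, 362 and 335 CPM, or 25.4% (log2 change −1.98 ± 0.05, edgeR, adjusted p = 2.05e-20). Cxcl3 was at 95.1, 83.6 and 91.0 CPM, or 24.1% (−2.05 ± 0.05, edgeR, adjusted p = 3.23e-20). The 95% intervals of the log2 changes ran from −2.08 to −1.88 for Cxcl2 and from −2.15 to −1.94 for Cxcl3, apart from −1.03 to −0.89 for Cxcl1 and −0.86 to −0.72 for Cxcl5. The difference between genes was not tested.

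Ratios of counts within a library, which do not depend on scaling between libraries, showed the same unequal change. Cxcl1 had 2.54, 2.67 and 2.71 counts for each of Cxcl2 with IL-1β and 5.20, 5.12 and 5.71 with SFRP5, without overlap. The ratio of Cxcl2 to Cxcl3 was 4.02, 3.77 and 3.49 with IL-1β and 3.88, 4.33 and 3.68 with SFRP5, so these ranges overlapped. Cxcl1 and Cxcl5 stood at 1.47, 1.44 and 1.43 and then at 1.29, 1.26 and 1.30. These ratios were picked after the values were seen and carry no test.

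Among the other members that rose with IL-1β, Cxcl16 fell most. It was at 4.49, 3.71 and 4.54 CPM with SFRP5, 31.1% of its level with IL-1β alone (log2 change −1.68 ± 0.17, edgeR, adjusted p = 1.1e-08). Cxcl10 had 49, 30 and 46 counts, or 2.42, 1.95 and 2.71 CPM, below all of the IL-1β libraries at 3.77, 4.72 and 3.87 CPM. The log2 change of Cxcl10 was −0.80 ± 0.24 (edgeR, adjusted p = 0.0118). It missed the threshold without IL-1β library 2 (adjusted p = 0.0654) or without library 2 with SFRP5 (adjusted p = 0.0547), while the adjusted p over all alternatives ran from 0.00639 to 0.0654.

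Cx3cl1 stayed at 310, 314 and 269 CPM with SFRP5, inside the range of 282 to 350 CPM with IL-1β apart from library 3. The log2 difference was −0.12 ± 0.06, with a 95% interval of −0.25 to 0.01 (edgeR, adjusted p = 0.172). Without IL-1β library 3, the lowest of its group, the difference was −0.21 and passed the threshold (adjusted p = 0.00611); without IL-1β library 1 it was −0.06, and without library 3 with SFRP5 −0.05. With no filter on low counts it also passed, at an adjusted p of 0.0353, and over all alternatives the adjusted p ran from 0.00611 to 0.614. The lower end of the interval, −0.25, lay above the intervals of all 4 ELR ligands.

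Both members that IL-1β had lowered were higher with SFRP5, by different amounts. Cxcl12 was at 23.1, 24.2 and 25.6 CPM, above every IL-1β library and below every control library. The log2 change against IL-1β was 0.52 ± 0.07 (edgeR, adjusted p = 8.79e-07), and its level was still 4.77-fold below control. Cxcl14 was at 16.7, 18.7 and 16.05 CPM. This was 8.05-fold above IL-1β alone (log2 change 3.01 ± 0.18, edgeR, adjusted p = 1.35e-12).

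Cells with IL-1β and SFRP5 were also set against control. It shares its libraries with the other comparisons, so its values are given side by side with them. Here 8 of 9 members were higher and Cxcl12 was lower, against 37.3% and 39% of all genes tested (76.3% called in all). Groups did not overlap for any of the 9, against 78.2% of all genes (38.2% higher and 40% lower). Cxcl14, 5.08-fold lower with IL-1β alone, was 1.58-fold above control with SFRP5 added (log2 change 0.66 ± 0.14, edgeR, adjusted p = 0.000115), and no library of either group overlapped the other. The remaining members kept the direction they had with IL-1β alone. Cxcl1 was 2107-fold and Cxcl5 499-fold above control, Cx3cl1 13.6-fold, Cxcl10 7.56-fold and Cxcl16 2.89-fold. For Cxcl2 the ratio of depth-scaled counts was 10970 (exact 95% interval 3037 to 90600), and for Cxcl3 it was 1858 (635.4 to 9013).

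Per gene length, the order of the ligands changed between groups. The length is the one in the deposited table, whose definition is not stated there. For Cxcl1 (1875 bases), Cxcl2 (2068), Cxcl3 (3498) and Cxcl10 (2252) it equals the whole GENCODE M21 span of the gene, introns included. For the other members it is shorter than that span. Ranks, orders and shares per length therefore depend on a length that does not treat all members alike. In control Cxcl12 led at 14.1 ± 0.311 FPKM, and Cxcl14 (5.90 ± 0.903) and Cx3cl1 (5.57 ± 0.477) followed with overlapping libraries. Cxcl5 came next at 1.58 FPKM, Cxcl16 (0.483) and Cxcl1 (0.479) overlapped, and Cxcl10 was at 0.134 FPKM, with Cxcl2 and Cxcl3 last and not separable at 0 to 2 counts a library. With IL-1β the order was Cxcl1, Cxcl5 (1369 ± 12.7 FPKM), Cxcl2 (676 ± 39.0), Cxcl3 (106 ± 3.72) and Cx3cl1 (82.2 ± 9.12), none of which overlapped its neighbour. Cxcl16 followed at 4.52 FPKM, and then Cxcl12 (2.07), Cxcl10 (1.83) and Cxcl14 (1.17), whose libraries overlapped from each to the next. With SFRP5 as well, Cx3cl1 (75.7 ± 6.30 FPKM) stood above Cxcl3 (25.7 ± 1.67), and Cxcl14 (9.38 ± 0.745) above Cxcl12 (2.97 ± 0.155), Cxcl16 (1.41 ± 0.155) and Cxcl10 (1.05 ± 0.171), without overlap.

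The make-up of the 9 transcripts shows the same shift as shares of their summed FPKM. In control libraries Cxcl12 held 47.9 to 52.4%, Cxcl14 18.5 to 22.1% and Cx3cl1 19.3 to 20.2%. With IL-1β, Cxcl1 held 46.7 to 46.8%, Cxcl5 31.9 to 32.9% and Cxcl2 15.7 to 16.7%, and Cxcl12 fell under all 3 at 0.0477 to 0.0504%. With SFRP5 the share of Cxcl2 was 7.78 to 8.45% and that of Cxcl5 37.6 to 38.1%. The summed level was 28.3 ± 1.86 FPKM in control, 4211 ± 104 with IL-1β and 2091 ± 26.8 with SFRP5.

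**Figure D4:**
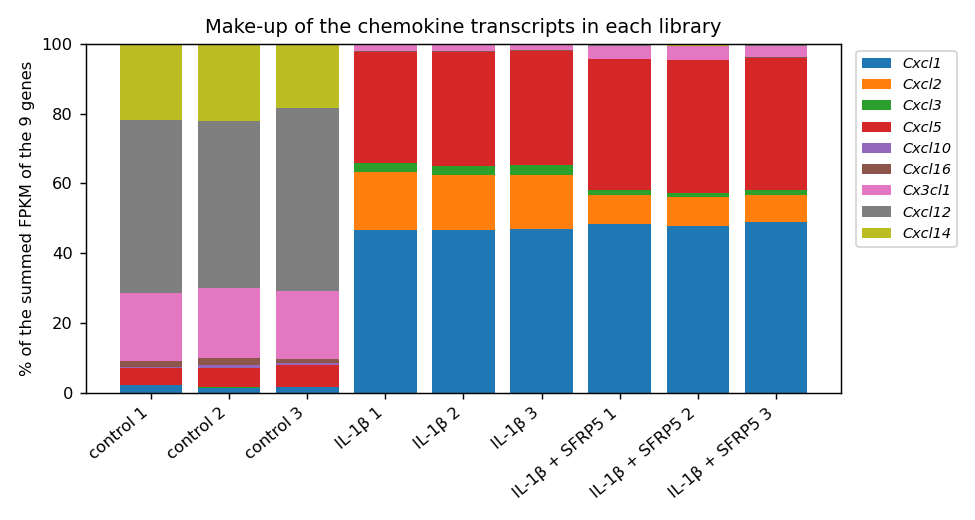
Share of each gene in the summed FPKM of the 9 chemokines, in percent, for each of 9 libraries. Control bars consist mainly of Cxcl12, Cxcl14 and Cx3cl1; stimulated bars consist mainly of Cxcl1, Cxcl5 and Cxcl2, with a smaller Cxcl2 segment when SFRP5 was present.

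Receptors for these ligands were mostly close to absent in the same libraries. Of 11 receptor genes listed, 2 had enough counts to be tested. Ackr3, an atypical receptor that takes up CXCL12 and clears it, was at 11.4, 13.1 and 13.5 CPM in control, at 30.3, 28.6 and 37.1 CPM with IL-1β and at 45.7, 46.8 and 55.4 CPM with SFRP5. It rose in both steps, by 1.34 ± 0.10 with IL-1β (edgeR, adjusted p = 3.86e-12) and by a further 0.62 ± 0.09 with SFRP5 (edgeR, adjusted p = 3.3e-06). Cxcr4, the signalling receptor for CXCL12, rose from 0.927 to 1.65 CPM with IL-1β (edgeR, adjusted p = 0.0194) and was at 1.36 CPM with SFRP5 (edgeR, adjusted p = 0.551). The neutrophil receptor Cxcr2 had 0 counts over control, 12 over IL-1β and 2 with SFRP5, Cx3cr1 had 14, 2 and 0, and Cxcr3 and Cxcr6 had 0 counts in all libraries. Of 7 other CXC ligands, 2 were tested. Cxcl9, an interferon-induced ligand of CXCR3, had 3 counts over control, 213 over IL-1β and 93 with SFRP5, and fell by 1.25 ± 0.27 with SFRP5 (edgeR, adjusted p = 0.000689). The platelet chemokine Ppbp rose with IL-1β from 13 to 49 counts (edgeR, adjusted p = 0.000506) and had 38 with SFRP5 (edgeR, adjusted p = 0.524).

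Lists of genes that act upstream of these chemokines are read against the 78.9% of all genes called with IL-1β and the 31.3% called when SFRP5 was added, and a count near those shares is no result about a list. All 10 listed NF-κB subunits and inhibitors rose with IL-1β, with a median log2 change of 2.30, and with SFRP5 9 were lower and 1 higher, with a median of −0.52. Tnfaip3, which encodes the inhibitor A20, fell by 1.49, the subunit Nfkb2 by 0.98, the inhibitor Nfkbia by 0.90 and the subunit Rel by 0.64 on the log2 scale with SFRP5 (edgeR, adjusted p = 5.64e-18, 1.59e-14, 1.59e-14 and 5.29e-08). Nfkbiz, an atypical IκB protein, was the member that rose, by 0.58 (edgeR, adjusted p = 2.79e-07), and was named after its values were seen. Of 15 tested genes of the IL-1 receptor and its chain, 10 rose and 3 fell with IL-1β, with a median log2 change of 0.29. The number called in either direction was near the share over all genes, of which 38.5% rose and 40.4% fell. The largest changes were a rise of 3.77 in Irak3, a brake on the pathway, a 5.65-fold fall in Il1rn, the receptor antagonist, and rises of 1.91 in Traf6 and 1.11 in Irak2. With SFRP5 4 of the 15 were higher and 5 lower, with a median of −0.08. Il1rn fell by 0.61, while the receptor subunits Il1r1 and Il1rap rose by 0.59 and 0.54 and the adaptor Myd88 by 0.52 (edgeR, adjusted p = 0.000515, 8.36e-09, 4.79e-05 and 3.77e-05). In control, with IL-1β and with SFRP5 as well, Il1r1 was at 60.9, 31.9 and 48.1 CPM and Myd88 at 25.3, 13.0 and 18.6 CPM. Both thus stayed below control with SFRP5, while Il1rap, at 12.9, 15.7 and 22.9 CPM, stood above it.

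**Figure D5:**
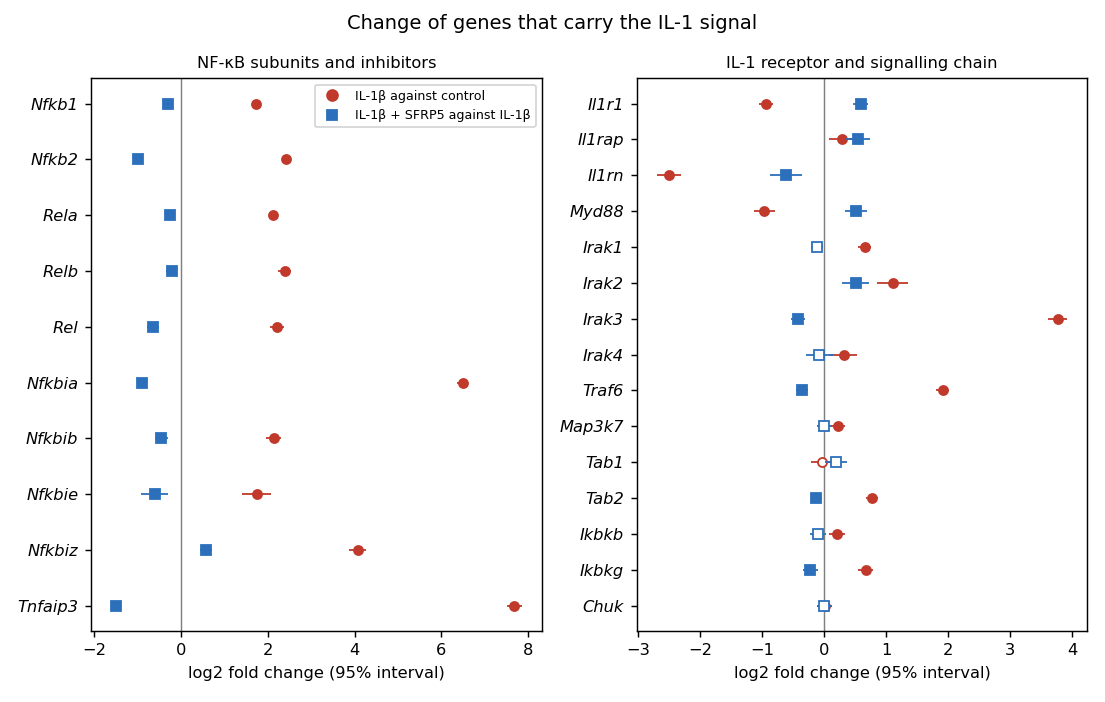
Log2 fold change, with its 95% interval, of 10 NF-κB genes (left) and 15 genes of the IL-1 receptor and its chain (right). Circles compare IL-1β with control, squares IL-1β and SFRP5 with IL-1β, and open symbols were not called; both comparisons share the IL-1β libraries. On the left all circles lie above 0 and 9 of 10 squares below 0, while on the right the squares lie on both sides.

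Lists of regulators known for single members had mixed directions. These lists and the proteases below are also read against all genes tested. Of those, 38.5% rose and 40.4% fell with IL-1β, and 15.6% rose and 15.7% fell with SFRP5. Of 10 tested interferon-side genes, 8 rose and 1 fell with IL-1β, and 5 fell and 0 rose with SFRP5. Irf1, an interferon regulatory factor, rose by 3.06 and then fell by 1.37 (edgeR, adjusted p = 2.01e-21 and 6.85e-14), the interferon-γ receptor chain Ifngr2 rose by 1.73 and fell by 0.53, and Ifnb1 had 0 counts in every library. Of 7 genes linked to Cxcl12 expression, 3 rose and 4 fell with IL-1β, and 4 rose and 2 fell with SFRP5. The members did not move one way: Epas1, a hypoxia-inducible factor, rose by 2.78 with IL-1β and fell by 0.60 with SFRP5, and Tgfb1 fell by 0.56 with SFRP5. Foxc1, a factor of CXCL12-rich stromal cells, fell by 1.35 and rose by 0.86 with SFRP5, and the mesenchymal factor Prrx1 fell by 1.67 and rose by 0.61. Ebf3 fell by 2.55 with IL-1β and was at 2.06 and 2.48 CPM without and with SFRP5 (edgeR, adjusted p = 0.347). Of 9 genes that act on chemokine mRNA decay, 7 rose with IL-1β, led by the nuclease Zc3h12a at 5.16. With SFRP5 Zfp36, which promotes decay of such mRNAs, fell by 0.82, Hnrnpd fell by 0.39 and Traf3ip2, which stabilises Cxcl1 mRNA downstream of IL-17, rose by 0.53. Of 9 tested proteases that shed or trim chemokines, 6 rose and 3 fell with IL-1β, led by Mmp13 at 6.97 and Mmp9 at 6.78, and 1 rose and 5 fell with SFRP5. The sheddases of CX3CL1 and CXCL16 were not called with SFRP5: Adam10 was at 66.0 and 70.0 CPM and Adam17 at 108.0 and 107.1 CPM without and with it (edgeR, adjusted p = 0.315 and 0.873), a pair named after its values were seen.

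Other chemoattractant and growth factor genes were read beside the fall with SFRP5. Of all genes tested, 31.3% were called with SFRP5, 15.7% lower and 15.6% higher. Of 9 tested CC chemokines, 3 were lower and 0 higher, with a median log2 change of −0.42. The number of CC chemokines called is near the share over all genes and is no result about that list. Of 4 colony-stimulating factors 3 were lower and 0 higher, with a median of −1.37. Ccl5, which draws T cells, fell by 1.97 and the monocyte chemokine Ccl2 by 1.11, whereas Ccl7 was at 299 and 296 CPM (edgeR, adjusted p = 1.23e-17, 7.27e-17 and 0.847), Ccl7 being named after its values were seen. Csf2 and Csf3, which drive neutrophil and macrophage production, fell by 2.01 and 1.83 (edgeR, adjusted p = 6.81e-07 and 1.32e-10). The difference between these lists and the CXC genes was not tested.

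Some genes followed nearly the same course as a member. For each member the 3 closest tested genes were taken by the root mean square difference of mean-centred log2 CPM over the 9 libraries, as a description. Cxcl12 had the closest, Igdcc4 at 0.0401, Lgr4, an R-spondin receptor of the Wnt pathway, at 0.0585 and Cdsn at 0.0784. Lgr4, for example, was at 154.3, 22.2 and 32.2 CPM in control, IL-1β and IL-1β with SFRP5. Cx3cl1 was closest to Hmox1 (0.0724), the heme oxygenase, which was at 255, 3986 and 3586 CPM, and then to Fstl3 (0.112) and Uox (0.138). Cxcl5 was closest to Ccl2 (0.167), Cxcl1 to Il6 (0.414), Cxcl3 to Trdc (0.503) and Cxcl2 to Ccl5 (0.651), whose distances include the noise of near-zero control counts. Cxcl10 was closest to Pde1c (0.199) and Cxcl16 to Ttll11 (0.271), followed by Ugt1a7c (0.277) and Irf1 (0.279). The gene closest to Cxcl14 was Masp1 (0.43), a complement-activating protease, at 31.5, 5.38 and 27.95 CPM.

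Marker genes and depth were read beside these results. The total count per library was 15795985 to 20688963. Counts of called markers are read against all genes tested. Of those, 38.5% rose and 40.4% fell with IL-1β (78.9% called in all). With SFRP5 against IL-1β alone, 15.6% rose and 15.7% fell. A count near those shares is no result about a list. All 10 chondrocyte markers were detected in every group, with a summed level of 109800 to 112200 CPM in control, 22700 to 23870 with IL-1β and 28360 to 29750 with SFRP5. Most of each sum was Col2a1 (74496, 15406 and 20767 CPM). All 10 were lower with IL-1β than in control. With SFRP5 against IL-1β alone, 5 were higher, 0 lower and 5 not called. The 12 macrophage markers summed to 17.5 to 19.0, 55.6 to 59.7 and 37.6 to 43.3 CPM, with Ptprc, the pan-leukocyte gene, at 6, 12 and 6 counts over the groups. Of the 6 macrophage markers tested, 4 rose and 1 fell with IL-1β, a number called that is near the share over all genes. Most of the added level came from Cd14 (1.25, 27.4 and 18.6 CPM) and Mrc1 (1.62, 11.2 and 5.53 CPM), while Laptm5 (3.24, 0.868 and 1.20 CPM) fell with IL-1β. The 10 neutrophil markers summed to 0 to 0.152, 5.89 to 7.46 and 4.93 to 7.22 CPM, and Ly6g, S100a9, Ngp and Csf3r had 0 counts in every library. Their sum was carried by Camp (0.0169, 5.20 and 4.48 CPM) and S100a8 (0, 1.48 and 1.40 CPM). Of these 10 markers 2 had enough counts to be tested, and both rose with IL-1β. Trdc, the T cell receptor gene named above beside Cxcl3, is not among the lymphocyte markers. It was at 0, 153.5 and 31.5 CPM in control, with IL-1β and with SFRP5 as well. The 8 lymphocyte markers summed to at most 0.136 CPM, the 8 endothelial markers to 2.53 to 3.33, 5.33 to 5.86 and 4.66 to 5.67 CPM, and the 8 synovial fibroblast markers to 200.2 to 205.9, 894 to 953 and 1137 to 1170 CPM. Of the 7 fibroblast markers tested, 3 rose and 3 fell with IL-1β; the sum was carried by Prg4 (65.4, 475 and 845 CPM) and Pdpn (34.3, 384 and 231 CPM), while Thy1 (18.5, 3.82 and 4.54 CPM) and Pdgfra (65.8, 25.4 and 46.4 CPM) fell with IL-1β. The single markers named in this paragraph were picked with their values in view. The part of such cells in the chemokine levels was not tested.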

How the data were processed

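Per the labels' protocols, directional libraries of chondrocyte RNA were sequenced from both ends; fastp trimmed the reads, STAR aligned them to mm10 and RSEM quantified genes (versions not given in the sources used here). As deposited by the authors, whole-number counts per gene cover 9 libraries. No label says how RSEM's estimates became whole numbers. The gene length is another column that the authors deposited. Column names were tied to samples through their group letter and last digit. Genes kept by filterByExpr (15502 of 56748) were tested with edgeR 4.0.16 (R 4.3.3): quasi-likelihood test, TMM factors, 1 mean per group, all 9 libraries, Benjamini-Hochberg over all genes tested, called at 0.05. FPKM is CPM per kilobase of the deposited length. SEs come from the change and its F statistic, and are too small where a group has few counts. A prior count of 2 was used for log2 CPM. Libraries of a group differed by more than sampling noise (chi-square 2.2 to 4.81 per gene). Positions in the table differ from GRCm38 and were not used; those printed are from GENCODE M21 and RefSeq. All 9 members are named; of each list, counts and at most 4 called genes with the largest change, plus receptors, and the 3 genes nearest to each member; 1 gene of a list is not reported here. The members and lists were chosen with earlier results of these data known. Alternatives were RLE and upper-quartile factors, DESeq2 1.42.0, no filter, robust dispersions, only the 6 libraries compared, the replicate number as a block, and each library left out.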

Additional observations from a re-analysis of the deposited data

How the results depend on the processing

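Of 432 member changes recomputed under 16 alternatives, 427 kept their direction and their side of the threshold, 2 lost the call, 3 gained it and 0 reversed. The lost calls were those of Cxcl10 with SFRP5, and the gained ones those of Cx3cl1 with SFRP5. Numbers of genes and members called stayed within 1.5 times under every alternative; with SFRP5 against IL-1β alone, 5 to 7 members were lower and 2 higher. Upper-quartile factors moved the median of all genes by −0.15 (log2) in IL-1β against control and by −0.13 in IL-1β with SFRP5 against control, and no member changed direction. With the replicate number as a block (replicate block), the genes called with SFRP5 against IL-1β alone were 2389 higher and 2391 lower, against 2420 and 2438, and Cx3cl1 passed the threshold at −0.12 (adjusted p = 0.0398). Same-numbered libraries did not deviate together, with correlations of −0.0364 to 0.0402, and not every library correlated best with its own number, so the numbers are taken as names. Fitted changes of Cxcl2 against control ran from 14.64 to 17.61 with IL-1β, the highest without control library 2, which held both control counts; those of Cxcl3 reached 13.56 without control library 3. Depth limits Cxcl10 and, in control, Cxcl2 and Cxcl3.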
